A study of Mus musculus with 30 samples.

Results

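The genes described are 9 structural components of the blood-testis barrier: the claudins Cldn11, Cldn3 and Cldn5, occludin (Ocln), tricellulin (Marveld2), the junctional adhesion molecule F11r, the scaffold Tjp1, connexin 43 (Gja1) and N-cadherin (Cdh2). They were found by gene symbol among the 65534 rows of the deposited expression table, all 9 were present once, and all 9 passed the filter of over 1 TPM in at least 5 libraries that left 20021 rows for testing. The values come from polyadenylated RNA of a testicular cell preparation enriched for germ cells, from mice described in the labels as C57BL/6J with under 10% 129S1/SvImJ. The animals carried no intact allele of Prdm9 (-/-), 1 intact allele (+/-) or 2 (+/+). Prdm9 encodes the histone methyltransferase that marks the sites of meiotic recombination. Animals of 8 days post partum (dpp) gave 5 -/-, 2 +/- and 3 +/+ libraries. Those of 12 dpp gave 5 -/-, 4 +/- and 1 +/+, and those of 16 dpp gave 5 -/-, 3 +/- and 2 +/+. Each library came from 1 animal and the 30 animals from 14 litters. The -/- libraries are called mutants, and the +/- and +/+ libraries of an age are pooled as non-mutants, 5 of each class at each age.

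The blood-testis barrier is a belt of junctions between neighbouring Sertoli cells, the somatic nurse cells of the seminiferous tubule. It closes off an inner compartment in which spermatocytes complete meiosis, and in the mouse it is assembled during the first wave of spermatogenesis. Tight junctions are built from claudins, occludin and tricellulin, which span the membrane, and from scaffold proteins that tie them to actin. Cadherins join the cells mechanically, and connexins form channels between them. In the mouse testis these genes are known mainly from Sertoli cells, and Cldn5 also from blood vessels.

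The promoters of 4 of the genes are shown because their transcripts changed with age in both genotype classes, Cldn11 upwards and F11r, Gja1 and Ocln downwards. RefSeq windows of build GRCm38.p6 were available for 8 of the 9 genes. The sequences run up to 250 bases before the annotated start and stop where the transcript annotation begins. Capitals mark matches, on either strand, to 7 searched motifs, none of which contains another: the TATA box with the letters TATAAA, the CCAAT box with CCAAT, the GC box with GGGCGG, the CRE with TGACGTCA, the AP-1 site with TGANTCA, the GATA site with AGATAA and the SOX site with ACAATG.
Cldn11, chr3:31149670-31149919, plus strand: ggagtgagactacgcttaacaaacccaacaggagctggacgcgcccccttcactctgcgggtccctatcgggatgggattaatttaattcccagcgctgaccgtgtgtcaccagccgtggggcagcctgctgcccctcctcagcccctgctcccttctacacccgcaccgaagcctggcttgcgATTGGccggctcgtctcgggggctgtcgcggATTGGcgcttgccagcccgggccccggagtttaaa
F11r, chr1:171437311-171437534, plus strand: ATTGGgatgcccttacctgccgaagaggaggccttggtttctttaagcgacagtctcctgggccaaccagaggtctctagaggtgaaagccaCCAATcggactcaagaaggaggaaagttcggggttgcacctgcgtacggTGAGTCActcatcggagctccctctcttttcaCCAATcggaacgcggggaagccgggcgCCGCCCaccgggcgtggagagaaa
Gja1, chr10:56377050-56377299, plus strand: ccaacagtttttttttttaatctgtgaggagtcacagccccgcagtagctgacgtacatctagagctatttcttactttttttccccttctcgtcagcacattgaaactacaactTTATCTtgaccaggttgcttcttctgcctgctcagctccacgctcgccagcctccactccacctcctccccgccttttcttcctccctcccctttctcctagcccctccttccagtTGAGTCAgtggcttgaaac
Ocln, chr13:100552719-100552968, minus strand: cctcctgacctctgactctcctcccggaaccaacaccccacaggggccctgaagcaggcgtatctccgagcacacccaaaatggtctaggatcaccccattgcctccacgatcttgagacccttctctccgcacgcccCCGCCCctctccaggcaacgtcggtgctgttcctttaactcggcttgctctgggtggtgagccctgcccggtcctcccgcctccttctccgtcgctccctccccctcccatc
The Cldn11 window held 2 CCAAT matches, both read on the opposite strand, whose first bases lay 66 and 35 bases before the start. The F11r window held 3 CCAAT matches, 1 AP-1 match and 1 GC box. The Gja1 window held 1 AP-1 match and 1 GATA match, and the Ocln window shown held 1 GC box. Another Ocln window, not shown, held 1 CCAAT match and 1 GC box. Among the 32851 windows of the table, 33.8% held CCAAT, 32.7% a GC box, 9.99% the GATA letters and 6.75% the AP-1 letters. No CRE or SOX match lay in the 4 windows shown, letters present in 1.55% and 10.7% of all windows. These matches are letters in a window and say nothing of binding.

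Before the junction genes are read, some properties of the libraries bear on them. The depth of a library is unknown, because TPM (a gene's share of the library's transcripts, corrected for gene length and scaled to a fixed total) keeps none. Prdm9 transcript (ENSMUSG00000051977) was at 10.9, 6.89, 9.78, 12.8 and 9.68 TPM in -/- libraries, 23.4, 26.4 and 19.7 TPM in +/- and 34.4 and 21.3 TPM in +/+ libraries at 16 dpp. At 8 dpp it lay between 4.77 and 8.98 TPM in mutants and between 1.82 and 6.1 TPM in non-mutants, so it does not check the labels of that age. In 1 litter of 12 dpp it went against the labels. It had 19.2 TPM where -/- replicate 5 is named and 9.16 TPM where +/- replicate 4 is named. The other -/- libraries of 12 dpp had 6.34 to 8.16 TPM. Both libraries of that litter were kept under their labels, and values without the litter are given where they change a call. The labelled germ cells were accompanied by Sertoli cell RNA: 12 Sertoli identity genes summed to 5630 to 9087 TPM across libraries, against 72.3 to 1231 TPM for 8 genes of leptotene and zygotene spermatocytes. The summed TPM of 9 pachytene genes lay between 166 and 217 in mutants at 16 dpp, against 313 to 1380 in non-mutants, and between 104 and 149 at both earlier ages. Summed endothelial markers (10 genes) lay between 73.7 and 179.7 TPM, and no marker of the Sertoli or endothelial lists was under 1 TPM throughout. Mutant replicates 1 and 4 at 8 dpp stood apart from the other 3 for some of the junction genes. Fold changes that rest on them are given with and without them, and correlations with them only.

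Ordered by mean TPM over all 30 libraries, Cldn11 was highest at 515 TPM, followed by Gja1 at 232, F11r at 219, Tjp1 at 81.2, Cdh2 at 58.5, Ocln at 58.3, Cldn5 at 16.2, Marveld2 at 9.50 and Cldn3 at 3.29 TPM. The order differed between groups: by group means Gja1 was above Cldn11 in mutants of 8 dpp, at 333 ± 89.7 TPM and 293 ± 103 TPM (SD, n = 5), F11r was above Gja1 in both classes at 12 dpp and in non-mutants at 16 dpp, and Ocln was above Cdh2 in both classes at 8 dpp. Neighbours in the order over all libraries were separated in most libraries, except Gja1 and F11r, where Gja1 was above F11r in 18 of 30, and Cdh2 and Ocln, where Cdh2 was above in 17 of 30. The 9 genes together made up 0.0976 to 0.138% of a library's transcripts. Cldn11, the claudin on which Sertoli cell strands depend in the mouse, thus exceeded Cldn5 by more than an order of magnitude and Cldn3 further still.

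**Figure D1:**
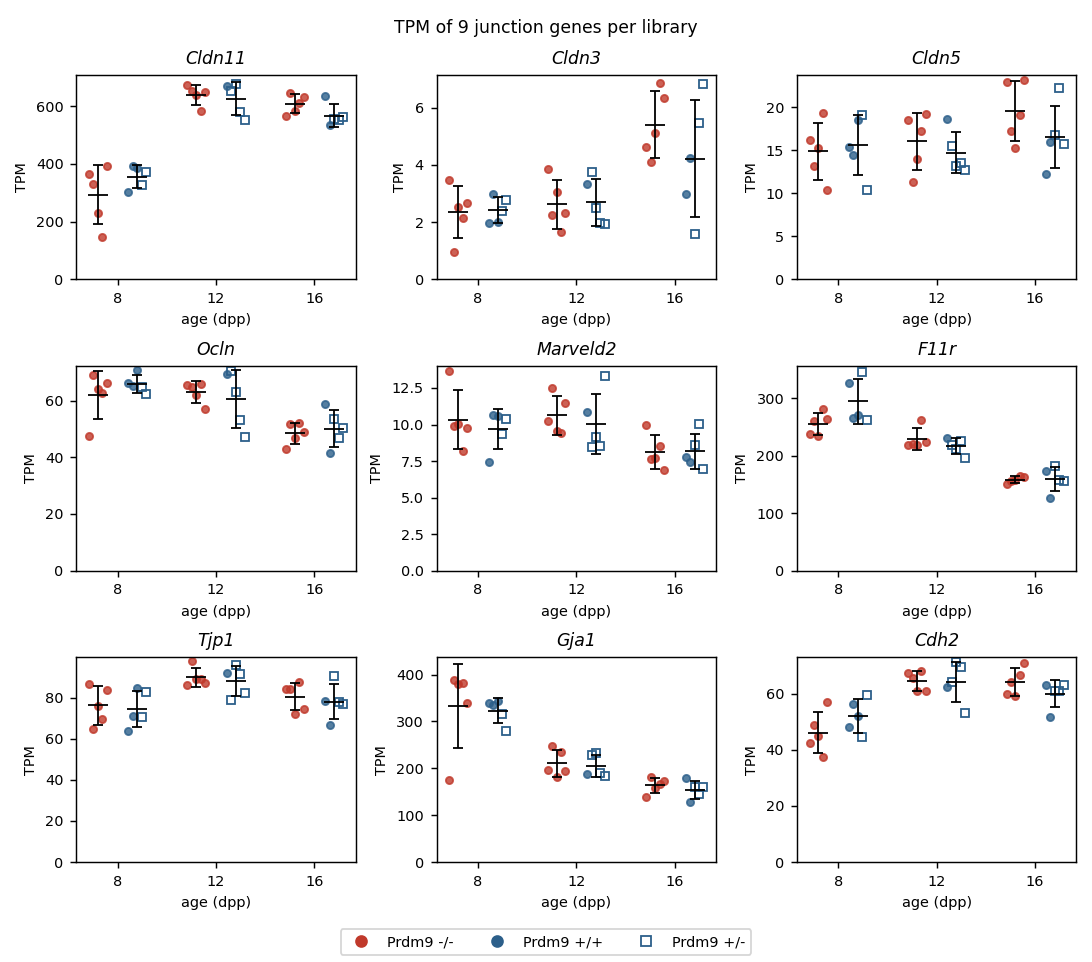
TPM of each of the 9 genes (vertical axes, from 0) against age in dpp, 1 point per library, with -/- libraries in red to the left of non-mutants in blue (open squares +/-, filled circles +/+); black bars are the mean and SD of 5 libraries. Cldn11 lies between 147 and 395 TPM at 8 dpp and between 534 and 676 TPM afterwards, while Gja1 and F11r are lowest at 16 dpp in both genotype classes.

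The comparisons of ages ask how barrier transcripts change over the days in which the barrier is assembled. The answer differed from gene to gene: Cldn11 and Cdh2 were higher at 12 dpp than at 8 dpp, Cldn3 was higher at 16 dpp in mutants, and Gja1, F11r and Ocln were lower at 16 dpp. From 8 to 16 dpp in mutants, 6 of the 9 genes passed a limma adjusted p of 0.05, 3 higher and 3 lower, against 47.1% of all rows tested (26.8% higher, 20.3% lower). In non-mutants 4 of 9 passed, 1 higher and 3 lower, against 51.3% of all rows (26.9% higher, 24.4% lower). From 8 to 12 dpp, 4 genes passed in mutants, 3 higher and 1 lower (29.7% of all rows, 17.5% higher and 12.2% lower), and 5 in non-mutants, 3 higher and 2 lower (32.5% of all rows, 20.3% higher and 12.1% lower). From 12 to 16 dpp, 3 genes passed in mutants, 1 higher and 2 lower (12.1% of all rows, 6.21% higher and 5.89% lower), and 2 in non-mutants, both lower (21.8% of all rows, 8.88% higher and 13% lower). The median log2 fold change of the 9 genes from 8 to 16 dpp was 0.083 in mutants and 0.065 in non-mutants, beside 0.055 and 0.025 over all rows of the same fits. The direction was mixed, and the count of 4 of 9 in non-mutants from 8 to 16 dpp was under the share of all rows while the other counts were at or above it; nothing particular to the 9 genes is read from counts this small. The split of all called rows depends on scaling: with median-ratio scaling the higher share of calls was 47.4% in place of 58.8% for mutants from 8 to 12 dpp, 45.1% in place of 62.6% for non-mutants over that step, and 62.5% in place of 40.6% for non-mutants from 12 to 16 dpp. Fold changes and SEs below are on the log2(TPM + 1) scale, which understates changes of low genes such as Cldn3, and each SE uses 1 spread per gene pooled over the 6 groups. In bulk RNA, fewer cells of a type and less RNA per cell cannot be told apart.

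**Figure D2:**
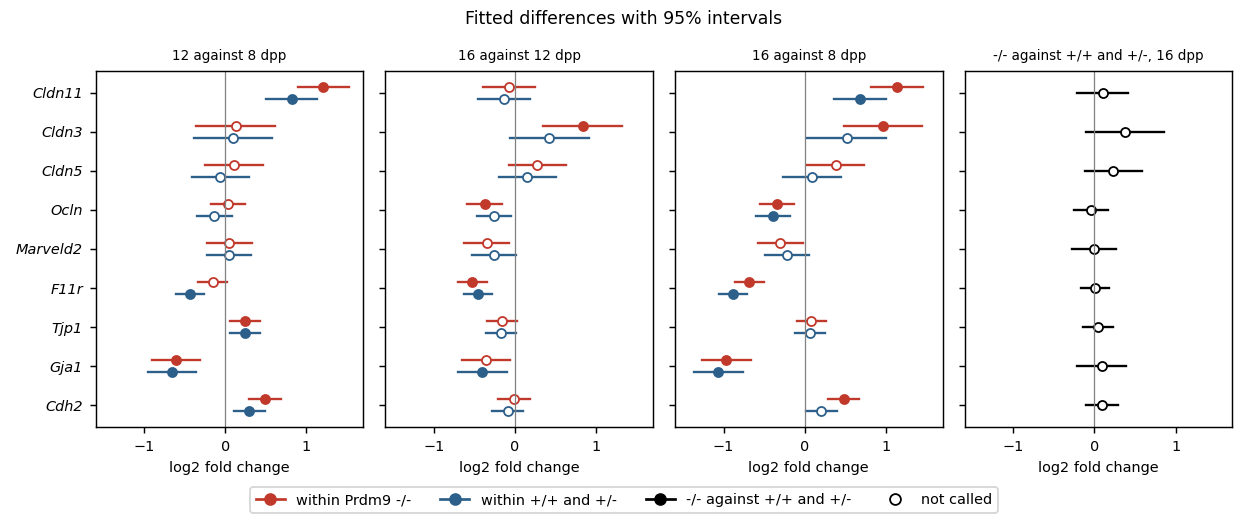
Fitted log2 fold changes (horizontal axes) with 95% intervals for the 9 genes, for 3 age steps within mutants (red) and non-mutants (blue) and for mutants against non-mutants at 16 dpp (black); filled points passed a limma adjusted p of 0.05. The intervals of Cldn11 and Gja1 from 8 to 16 dpp lie on opposite sides of 0 in both classes, and every interval of the genotype comparison at 16 dpp includes 0.

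Cldn11 (ENSMUSG00000037625, chr3:31149920-31164324 on the plus strand, mm10) encodes a claudin of Sertoli cells and myelin without which male mice are sterile. At 8 dpp it had 365, 330.5, 229.5, 147 and 394 TPM in -/- libraries, 326 and 373 TPM in +/- and 301, 395 and 385 TPM in +/+ libraries. At 12 dpp it had 675, 653, 640.2, 583 and 651 TPM in -/- libraries, 654, 676, 581 and 552 TPM in +/- and 671 TPM in +/+ libraries. At 16 dpp it had 566, 646, 585, 613 and 633 TPM in -/- libraries, 555, 553 and 564 TPM in +/- and 634 and 534 TPM in +/+ libraries. Every library of 12 and 16 dpp was above every library of 8 dpp, and the 2 later ages overlapped. The 12 dpp level was 2.31-fold the 8 dpp level in mutants (log2 fold change 1.21, SE 0.16, adjusted p = 8.88e-07 by limma) and 1.76-fold in non-mutants (0.82, SE 0.16, adjusted p = 0.000185), with TPM + 1 as the base of the folds. From 12 to 16 dpp the difference did not pass in mutants (-0.074, SE 0.16, adjusted p = 0.819; 95% interval -0.39 to 0.24) or in non-mutants (-0.14, SE 0.16, adjusted p = 0.558; 95% interval -0.46 to 0.18). Over the whole span Cldn11 rose in mutants (1.14, SE 0.16, adjusted p = 6.41e-07) and in non-mutants (0.68, SE 0.16, adjusted p = 0.00055). Mutant replicate 4 at 8 dpp was the lowest library at 147 TPM; without mutant replicates 1 and 4 the mutant value from 8 to 16 dpp was 0.97, adjusted p = 1.08e-07.

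Cldn3 (ENSMUSG00000070473, chr5:134986214-134987472 on the plus strand) is a claudin known from mouse Sertoli cells as androgen-responsive and present in newly formed tight junctions. It was a low transcript, at 3.48, 0.970, 2.54, 2.14 and 2.68 TPM in -/- libraries, 2.39 and 2.79 TPM in +/- and 1.97, 3.0 and 1.99 TPM in +/+ libraries at 8 dpp. At 12 dpp it had 3.87, 2.26, 3.05, 1.64 and 2.32 TPM in -/- libraries, 3.77, 2.50, 1.96 and 1.95 TPM in +/- and 3.34 TPM in +/+ libraries. At 16 dpp it had 4.64, 4.11, 5.12, 6.87 and 6.34 TPM in -/- libraries, 1.59, 5.48 and 6.82 TPM in +/- and 3.0 and 4.23 TPM in +/+ libraries. In mutants every 16 dpp library was above every earlier one, while in non-mutants +/- replicate 1, at 1.59 TPM, lay under all non-mutant libraries of 8 dpp. Cldn3 rose in mutants from 12 to 16 dpp (0.84, SE 0.24, adjusted p = 0.0187 by limma) and from 8 to 16 dpp (0.96, SE 0.24, adjusted p = 0.00128), and the non-mutant value from 8 to 16 dpp did not pass (0.52, SE 0.24, adjusted p = 0.0686). Without +/- replicate 1 of 16 dpp the non-mutant value was 0.75, adjusted p = 0.00569, past the threshold. The mutant step from 12 to 16 dpp no longer passed without mutant replicate 4 of 12 dpp (adjusted p = 0.0647) or without mutant replicate 4 or 5 of 16 dpp (0.0522 and 0.0545). Macrophage and leukocyte markers moved over the same step: of 6 genes, 4 rose in mutants from 12 to 16 dpp (median log2 fold change 0.83) and 1 in non-mutants (0.20), and at 16 dpp they summed to 86.6 to 166 TPM in mutants, against 60.3 to 123 TPM in non-mutants, with none at 0. The correlation of Cldn3 with their mean was 0.62 over 30 libraries and 0.15 after group means were subtracted, and their part in the Cldn3 values was not tested. The antisense gene Wbscr25 overlaps Cldn3 and averaged 0.001 TPM.

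Cldn5 (ENSMUSG00000041378, chr16:18776847-18778262 on the plus strand) is the main claudin of blood vessel endothelium and is also reported from Sertoli cells. Mutant libraries had 10.4 to 19.3 TPM (median 15.3) at 8 dpp, 11.3 to 19.2 TPM (median 17.2) at 12 dpp and 15.2 to 23.1 TPM (median 19.1) at 16 dpp. Non-mutant libraries had 10.4 to 19.1 TPM (median 15.3), 12.8 to 18.6 TPM (median 13.5) and 12.2 to 22.2 TPM (median 16.0) at the same ages. The ages overlapped in both classes, and no step passed the threshold. From 8 to 16 dpp the log2 fold change was 0.38, SE 0.17, adjusted p = 0.0701 in mutants by limma and 0.089, SE 0.17, adjusted p = 0.692 in non-mutants. Without mutant replicate 4 of 8 dpp, or without mutant replicate 3 of 16 dpp, the mutant value was 0.48, adjusted p = 0.0301 or 0.46, adjusted p = 0.0381 and passed.

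Ocln (ENSMUSG00000021638, chr13:100496507-100552718 on the minus strand) encodes occludin, a membrane protein of the tight junction strand. At 8 dpp it had 47.5, 69.0, 64.1, 62.8 and 66.3 TPM in -/- libraries, 64.8 and 62.4 TPM in +/- and 66.3, 65.3 and 70.6 TPM in +/+ libraries. At 12 dpp it had 65.5, 64.8, 61.9, 66.0 and 56.9 TPM in -/- libraries, 70.4, 62.9, 53.2 and 47.1 TPM in +/- and 69.4 TPM in +/+ libraries. At 16 dpp it had 42.9, 51.6, 46.7, 52.0 and 49.0 TPM in -/- libraries, 53.4, 46.6 and 50.2 TPM in +/- and 58.9 and 41.6 TPM in +/+ libraries. In non-mutants every 16 dpp library was under every 8 dpp library; in mutants replicate 1 of 8 dpp, at 47.5 TPM, fell among the 16 dpp values. Ocln was 0.790-fold its 8 dpp level at 16 dpp in mutants (-0.34, SE 0.10, adjusted p = 0.00762 by limma) and 0.760-fold in non-mutants (-0.40, SE 0.10, adjusted p = 0.00201). The fall lay between 12 and 16 dpp in mutants (-0.37, SE 0.10, adjusted p = 0.0155), and the same step did not pass in non-mutants (-0.26, SE 0.10, adjusted p = 0.0695). It passed in non-mutants without +/- replicate 4 of 12 dpp (-0.35, adjusted p = 0.0157) or without its litter, in which Prdm9 went against the labels (adjusted p = 0.0165), and without +/+ replicate 1 of 16 dpp (-0.32, adjusted p = 0.035). The value was unmoved and passed without mutant replicate 1 of 8 dpp (adjusted p = 0.0409) or mutant replicates 1 and 4 of 8 dpp (0.0398). Without mutant replicates 1 and 4 of 8 dpp the mutant value from 8 to 16 dpp was -0.45, adjusted p = 0.0012. With +/- libraries alone in place of all non-mutants, the non-mutant fall from 8 to 16 dpp did not pass (-0.34, adjusted p = 0.0776 by limma).

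Marveld2 (ENSMUSG00000021636, chr13:100595957-100616971 on the minus strand) encodes tricellulin, which seals the points where 3 cells meet. Mutant libraries had 8.22 to 13.7 TPM (median 9.93) at 8 dpp, 9.40 to 12.5 TPM (median 10.3) at 12 dpp and 6.87 to 9.96 TPM (median 7.70) at 16 dpp. Non-mutant libraries had 7.44 to 10.6 TPM (median 10.4), 8.48 to 13.3 TPM (median 9.14) and 6.93 to 10.0 TPM (median 7.80) at the same ages, and the ages overlapped. No step passed, and from 8 to 16 dpp the values were -0.30, SE 0.13, adjusted p = 0.0651 in mutants and -0.22, SE 0.13, adjusted p = 0.171 in non-mutants by limma. Scaling decided the mutant call: it passed with median-ratio scaling (-0.35, adjusted p = 0.017) and with quantile normalization (-0.37, adjusted p = 0.0117), and also without mutant replicate 4 of 8 dpp or mutant replicate 1 of 16 dpp (-0.37, adjusted p = 0.0301 and -0.37, adjusted p = 0.0315).

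F11r (ENSMUSG00000038235, chr1:171437535-171464603 on the plus strand) encodes junctional adhesion molecule A, an immunoglobulin-fold protein that helps to set up cell polarity at tight junctions. At 8 dpp it had 237, 259.8, 234, 281 and 264 TPM in -/- libraries, 345 and 262 TPM in +/- and 327, 265 and 271 TPM in +/+ libraries. At 12 dpp it had 219, 220.2, 219, 262 and 223 TPM in -/- libraries, 219, 212, 226 and 196 TPM in +/- and 231 TPM in +/+ libraries. At 16 dpp it had 149.8, 156, 158, 165 and 163 TPM in -/- libraries, 182, 158 and 156 TPM in +/- and 172 and 126 TPM in +/+ libraries. Every 16 dpp library was under every library of 8 and 12 dpp. At 16 dpp the level was 0.623-fold that of 8 dpp in mutants (-0.68, SE 0.085, adjusted p = 1.45e-07 by limma) and 0.542-fold in non-mutants (-0.88, SE 0.085, adjusted p = 1.08e-09). F11r fell from 8 to 12 dpp in non-mutants (-0.43, SE 0.085, adjusted p = 0.000284), and the mutant value for that step did not pass (-0.16, SE 0.085, adjusted p = 0.173). From 12 to 16 dpp it fell in both classes, by 0.53, SE 0.085, adjusted p = 0.000109 in mutants and by 0.45, SE 0.085, adjusted p = 0.000275 in non-mutants. The mutant 12 dpp values are led by replicate 4 at 262 TPM, with the other 4 between 219 and 223.

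Tjp1 (ENSMUSG00000030516, chr7:65296165-65527781 on the minus strand) encodes ZO-1, which links claudins and occludin to actin. Mutant libraries had 64.6 to 86.8 TPM (median 76.1) at 8 dpp, 86.2 to 97.9 TPM (median 89.1) at 12 dpp and 72.1 to 87.5 TPM (median 84.1) at 16 dpp. Non-mutant libraries had 63.7 to 84.7 TPM (median 71.2), 78.6 to 95.9 TPM (median 91.4) and 66.4 to 90.4 TPM (median 77.9) at the same ages. Its highest means thus stood at 12 dpp, and all ages overlapped. Tjp1 rose from 8 to 12 dpp by 1.18-fold in mutants (0.24, SE 0.089, adjusted p = 0.0391 by limma) and 1.18-fold in non-mutants (0.24, SE 0.089, adjusted p = 0.0387), and the values from 8 to 16 dpp did not pass (0.083, SE 0.089, adjusted p = 0.477 and 0.065, SE 0.089, adjusted p = 0.565). Neither rise passed with the litter as a random effect (adjusted p = 0.0529 in mutants and 0.0523 in non-mutants), and single libraries decided both: leaving out any of mutant replicates 2, 3 and 4 of 8 dpp or 2, 3, 4 and 5 of 12 dpp, the mutant value was 0.19 to 0.25 with adjusted p between 0.0522 and 0.13. In non-mutants the same held for +/+ replicates 1 and 2 and +/- replicate 1 of 8 dpp, and for +/+ replicate 1 and +/- replicates 2 and 3 of 12 dpp (0.19 to 0.23, adjusted p between 0.0733 and 0.138). Without the 12 dpp litter in which Prdm9 went against the labels, the mutant value was 0.25, adjusted p = 0.0556. Of 3 genes that overlap Tjp1, none had a row of its own.

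Gja1 (ENSMUSG00000050953, chr10:56377330-56402513 on the plus strand) encodes connexin 43, the gap junction protein that joins Sertoli cells to each other and to germ cells. At 8 dpp it had 176, 388, 379, 381 and 339 TPM in -/- libraries, 316 and 280.0 TPM in +/- and 339, 336 and 344 TPM in +/+ libraries. At 12 dpp it had 197, 248, 182, 234 and 194 TPM in -/- libraries, 228, 233, 189.7 and 185 TPM in +/- and 188 TPM in +/+ libraries. At 16 dpp it had 139.7, 182, 159, 167 and 172 TPM in -/- libraries, 159, 146 and 159 TPM in +/- and 179.8 and 128 TPM in +/+ libraries. In non-mutants the ages did not overlap, each later age lying under the one before; in mutants replicate 1 of 8 dpp, at 176 TPM, lay among the 16 dpp values while the other 4 were at 339 to 388 TPM. At 16 dpp the level was 0.512-fold that of 8 dpp in mutants (-0.97, SE 0.15, adjusted p = 3.39e-06 by limma) and 0.478-fold in non-mutants (-1.06, SE 0.15, adjusted p = 5.75e-07). Most of the fall came by 12 dpp (-0.61, SE 0.15, adjusted p = 0.00218 in mutants and -0.66, SE 0.15, adjusted p = 0.000982 in non-mutants). From 12 to 16 dpp the non-mutant fall passed narrowly (-0.41, SE 0.15, adjusted p = 0.0469) and the mutant value did not (-0.36, SE 0.15, adjusted p = 0.115). That non-mutant call was lost with the litter as a random effect (adjusted p = 0.052), with other scalings and in 18 of the 30 fits that left out 1 library, and without the litter in which Prdm9 went against the labels (-0.44, adjusted p = 0.0545). Without mutant replicate 1 of 8 dpp the mutant value from 8 to 16 dpp was -1.18, adjusted p = 1.79e-10, and the step from 12 to 16 dpp then passed in mutants (-0.36, adjusted p = 0.0114).

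Cdh2 (ENSMUSG00000024304, chr18:16588877-16809246 on the minus strand) encodes N-cadherin, an adhesion molecule of Sertoli cell contacts. At 8 dpp it had 42.5, 48.8, 44.8, 37.4 and 56.9 TPM in -/- libraries, 44.5 and 59.4 TPM in +/- and 48.0, 56.2 and 52.0 TPM in +/+ libraries. At 12 dpp it had 67.3, 65.4, 60.9, 68.1 and 60.9 TPM in -/- libraries, 64.3, 71.2, 69.5 and 53.1 TPM in +/- and 62.4 TPM in +/+ libraries. At 16 dpp it had 59.8, 64.1, 59.0, 66.6 and 71.0 TPM in -/- libraries, 61.0, 60.8 and 63.2 TPM in +/- and 63.2 and 51.6 TPM in +/+ libraries. In mutants every library of 12 and 16 dpp was above every 8 dpp library, and in non-mutants the ages overlapped. Cdh2 rose from 8 to 12 dpp in mutants (0.49, SE 0.095, adjusted p = 0.000245 by limma) and in non-mutants (0.30, SE 0.095, adjusted p = 0.0176), and from 8 to 16 dpp in mutants (0.48, SE 0.095, adjusted p = 0.000131); the non-mutant value over the whole span was 0.20, SE 0.095, adjusted p = 0.0731. Without mutant replicates 1 and 4 of 8 dpp the mutant value from 8 to 16 dpp was 0.35, adjusted p = 0.0053. The non-mutant rise from 8 to 12 dpp did not pass with median-ratio scaling (0.19, adjusted p = 0.127) or without +/+ replicate 1 or +/- replicate 1 of 8 dpp or +/- replicate 2 of 12 dpp (adjusted p = 0.0514, 0.0646 and 0.0563). The non-mutant value over the whole span passed without +/- replicate 2 of 8 dpp (0.25, adjusted p = 0.0343) or without +/+ replicate 2 of 16 dpp (0.26, adjusted p = 0.0303).

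Across the 30 libraries some of the junction genes varied together. The correlation of log2(TPM + 1) was 0.88 between Cldn11 and Cdh2, 0.84 between F11r and Gja1, 0.79 between Ocln and F11r and 0.78 between Ocln and Gja1, and it was -0.73 between Cldn11 and Gja1 (Pearson, n = 30). These points share their ages, their litters and the fixed TPM total. After each of the 6 group means was subtracted, the values were 0.62 for Cldn11 with Cdh2 and 0.75 for Ocln with Gja1, while F11r with Gja1 was at 0.38 and Cldn11 with Gja1 at -0.25.

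Sertoli cell marker genes changed over the same days. Of 12 Sertoli identity genes, 6 fell and 2 rose from 8 to 16 dpp in mutants (median log2 fold change -0.34) and 10 fell and 1 rose in non-mutants (-0.55), against medians of 0.055 and 0.025 over all rows. Of all rows, 20.3% were lower and 26.8% higher in mutants, and 24.4% and 26.9% in non-mutants. In non-mutants Gdnf, a growth factor for spermatogonial stem cells (-2.06, SE 0.18, adjusted p = 1.82e-10 by limma), Dhh, a hedgehog ligand (-1.03, SE 0.11, adjusted p = 9.71e-09), and Sox9, a transcription factor of Sertoli cell fate (-0.69, SE 0.099, adjusted p = 1.2e-06), fell, while Tsx rose (4.87, SE 0.31, adjusted p = 7.01e-13). Of 7 genes that rise as mouse Sertoli cells mature, 6 rose and none fell in each class, among them the homeobox genes Rhox5 (3.82 in non-mutants) and Hopx (3.21) and the water channel Aqp8 (2.84). The marker lists were drawn up with earlier results of these data known, so the rise of these genes is not an independent observation. Amh, the hormone of immature Sertoli cells, fell (-2.55 in mutants and -2.47 in non-mutants). The part of these shifts in the junction gene values was not tested beyond the following measurements.

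The level of each junction gene was set against the mean log2(TPM + 1) of the Sertoli identity genes other than Tsx in the same library. By this measure Cldn11 stood at 0.42 ± 0.64, 1.80 ± 0.19 and 2.07 ± 0.051 at 8, 12 and 16 dpp in mutants and at 0.65 ± 0.16, 1.83 ± 0.11 and 2.06 ± 0.057 in non-mutants (mean log2 difference ± SD, n = 5). Cdh2 stood at -2.15 ± 0.23, -1.49 ± 0.14 and -1.16 ± 0.10 in mutants and at -2.10 ± 0.20, -1.44 ± 0.090 and -1.17 ± 0.081 in non-mutants. Gja1 stood at 0.63 ± 0.29, 0.19 ± 0.055 and 0.18 ± 0.064 in mutants and at 0.52 ± 0.060, 0.22 ± 0.12 and 0.18 ± 0.094 in non-mutants. Relative to these genes Cldn11 and Cdh2 were thus higher at the later ages, and Gja1 was lower at 12 and 16 dpp. Ocln stood at -1.73 ± 0.099 and -1.76 ± 0.046 at 8 dpp in mutants and non-mutants, and at -1.56 ± 0.069 and -1.43 ± 0.093 at 16 dpp. With Tsx kept among the Sertoli genes the direction of Ocln turned: it stood at -1.23 ± 0.10 and -1.27 ± 0.057 at 8 dpp, and at -1.55 ± 0.084 and -1.40 ± 0.11 at 16 dpp, in mutants and non-mutants. F11r stood at 0.30 ± 0.27 at 8 dpp and 0.13 ± 0.076 at 16 dpp in mutants, and at 0.37 ± 0.21 and 0.22 ± 0.12 in non-mutants without Tsx, a shift of under 1 SD of the 8 dpp libraries. With Tsx kept it stood at 0.81 ± 0.25 and 0.14 ± 0.078 in mutants and at 0.87 ± 0.22 and 0.24 ± 0.15 in non-mutants.

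**Figure D3:**
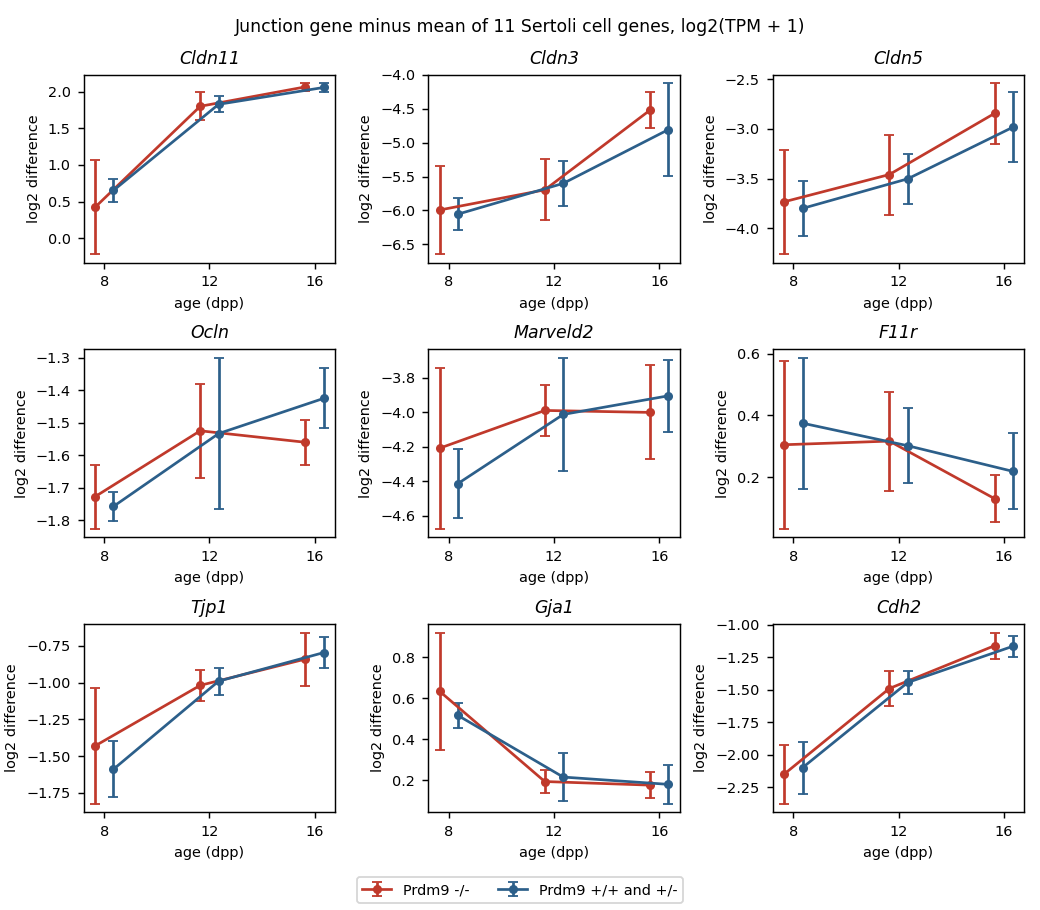
Log2 difference between each junction gene and the mean of 11 Sertoli identity genes in the same library (vertical axes, scaled per gene) against age in dpp; points are means of 5 libraries, bars are SDs, mutants red and non-mutants blue. Cldn11 and Cdh2 are higher at the later ages in both classes, while Gja1 is lower at 12 and 16 dpp than at 8 dpp.

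With that mean as a covariate in the fit, chosen after the data had been seen, Cldn11 still rose from 8 to 16 dpp (1.25, adjusted p = 0.00014 in mutants and 0.84, adjusted p = 0.0299 in non-mutants by limma), F11r was lower (-0.56, adjusted p = 0.000873 and -0.71, adjusted p = 0.00124), and Cdh2 passed in both classes (0.74, adjusted p = 5.4e-05 and 0.57, adjusted p = 0.00732). The calls of Gja1 (-0.24, adjusted p = 0.111 and -0.025, adjusted p = 0.92) and Ocln (0.033, adjusted p = 0.862 and 0.14, adjusted p = 0.518) were lost, as was that of Cldn3 in mutants (0.43, adjusted p = 0.334). With all 12 genes, Tsx included, as the covariate, Gja1 kept its calls (-0.95, adjusted p = 2.95e-09 and -0.67, adjusted p = 1.81e-05 by limma) and Ocln lost the one in non-mutants (-0.15, adjusted p = 0.172). In that fit Cldn11 and F11r kept their calls in both classes, and Cldn3, Ocln and Cdh2 kept theirs in mutants. Without Tsx the covariate itself fell from 7.69 at 8 dpp to 7.18 at 16 dpp in mutants and from 7.82 to 7.09 in non-mutants. It thus shares its age trend with Gja1, Ocln and F11r. The Cdh2 call in non-mutants, absent from the main fit (0.20, adjusted p = 0.0731 by limma), carries the same limit. The differences above subtract the Sertoli mean in full, while the fit estimates its weight for each gene, so the F11r values are unlike measures.

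Cldn11 correlated at 0.89 with the mean of the 7 Sertoli maturation genes over 30 libraries and at 0.82 after group means were subtracted. Within groups it varied most in mutants of 8 dpp, with an SD of 103 TPM against 32.9 to 56.7 TPM in the other groups. The correlation was not computed without those libraries. The 2 mutant libraries of 8 dpp with the lowest Cldn11, replicates 4 and 3, also had low means of these genes. Cldn5 correlated at 0.48 with the mean of 10 endothelial genes and at 0.73 after group means were subtracted, and at 0.25 and -0.21 with the Sertoli maturation genes. Of the 10 endothelial genes, 3 fell and 0 rose from 8 to 16 dpp in each class, beside 20.3% of all rows lower in mutants and 24.4% in non-mutants, among them Cdh5, the cadherin of endothelial junctions (-0.80 in mutants and -1.04 in non-mutants). Cldn3 correlated at 0.60 with the Sertoli maturation genes, and after group means were subtracted at 0.47 with them and at 0.73 with the pachytene genes. The pachytene mean varied mainly in non-mutants of 16 dpp, with an SD of 0.94 against 0.058 to 0.17 in the other groups. The value of 0.73 therefore rests mostly on those libraries. Gja1 and Ocln correlated with the Sertoli identity genes at 0.62 and 0.75, and at 0.80 and 0.72 within groups. Gja1, F11r and Cldn11 correlated with the leptotene and zygotene genes at -0.91, -0.87 and 0.81, and at -0.48, -0.29 and 0.41 within groups. Those genes averaged a summed 115 TPM at 8 dpp and 1042 TPM at 16 dpp in non-mutants, and 121 and 911 TPM in mutants. Cldn11 and Tjp1 correlated with differentiating spermatogonial genes at 0.73 and 0.74, and at 0.63 and 0.58 within groups. Marveld2 followed undifferentiated spermatogonial genes at 0.75 and 0.68 within groups, and differentiating spermatogonial genes at 0.47 and 0.72. All of these are descriptions over libraries that share ages, litters and the TPM total, with lists drawn up with earlier results of these data known.

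**Figure D4:**
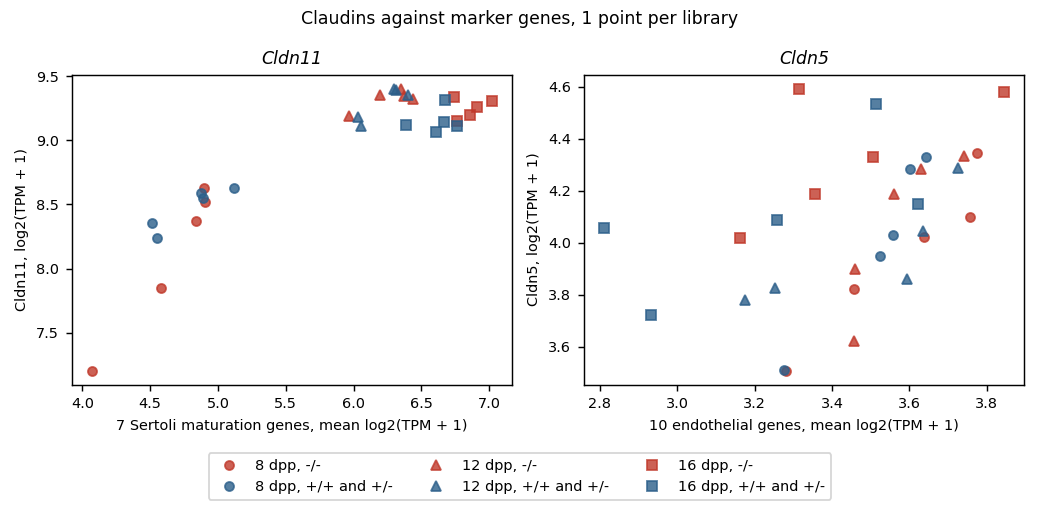
Cldn11 against the mean of 7 Sertoli maturation genes (left) and Cldn5 against the mean of 10 endothelial genes (right), both axes in log2(TPM + 1), 1 point per library, mutants red and non-mutants blue, ages by symbol. Cldn11 follows its marker genes at r = 0.89 with the 8 dpp libraries apart from the later ones, and Cldn5 follows its own at r = 0.48 with the ages intermixed.

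The comparison of mutants with non-mutants asks whether barrier transcripts differ where meiosis is impaired by loss of Prdm9. None of the 9 genes passed at any age. At 8 dpp 0 of 20021 rows passed by limma (0%). By limma, 2 of the 9 genes had an unadjusted p under 0.05, Cldn11 (-0.36, SE 0.16, adjusted p = 1) and F11r (-0.20, SE 0.085, adjusted p = 1), both lower in mutants, among 417 rows in all. The Cldn11 value turned on mutant replicate 4: without that library it was -0.13, adjusted p = 1, and without mutant replicates 1 and 4 together -0.19, adjusted p = 1. At 12 dpp 0 rows passed (0%), with 0 of the 9 genes and 225 rows under an unadjusted p of 0.05 by limma. Chance would give about 1001 rows at each age, and the counts at 8 and 12 dpp were below that. The main fit does not pair litter mates. At 16 dpp 3.26% of rows passed and 0 of the 9 genes. By limma 2473 of 20021 rows and 0 of the 9 genes had an unadjusted p under 0.05, and nothing particular to the 9 genes is read from that count. The difference of the 8 to 16 dpp step between classes was called in 1.47% of rows and in 0 of the 9 genes. By limma 1597 rows had an unadjusted p under 0.05, among them 1 of the 9 genes, Cldn11 (0.46, SE 0.22, unadjusted p = 0.0461, adjusted p = 0.605). Without mutant replicate 4 of 8 dpp that difference was 0.23, adjusted p = 0.729, and without replicates 1 and 4 together 0.29, adjusted p = 0.614. Across 200 alternative fits of these comparisons and of heterozygotes against +/+ animals, 0 gave a count of junction genes above 0. At 8 and 12 dpp and for heterozygotes 0 rows passed in the main fits, so a count of 0 there says nothing particular to the 9 genes.

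At 16 dpp, when pachytene transcripts separated the classes (Ldhc, the lactate dehydrogenase of spermatocytes, -5.21, SE 0.43, adjusted p = 1.43e-09 by limma), Cldn11 averaged 608 ± 32.9 TPM in mutants and 568 ± 38.5 TPM in non-mutants (SD, n = 5 each), a log2 difference of 0.10, SE 0.16 with a 95% interval of -0.22 to 0.42. Gja1 averaged 164 ± 16.0 TPM in mutants and 154 ± 19 TPM in non-mutants, with an interval of -0.21 to 0.39. F11r averaged 158 ± 6.09 TPM in mutants and 159 ± 21.2 TPM in non-mutants, with an interval of -0.17 to 0.18. Ocln averaged 48.4 ± 3.76 TPM in mutants and 50.2 ± 6.56 TPM in non-mutants (-0.25 to 0.17), Tjp1 80.5 ± 6.76 TPM and 78.0 ± 8.52 TPM (-0.14 to 0.23), and Cdh2 64.1 ± 4.96 TPM and 60.0 ± 4.83 TPM (-0.099 to 0.29). Cldn3 averaged 5.42 ± 1.16 TPM in mutants and 4.22 ± 2.05 TPM in non-mutants, with an interval of -0.11 to 0.86. Cldn5 averaged 19.5 ± 3.49 TPM in mutants and 16.6 ± 3.60 TPM in non-mutants (-0.12 to 0.58), and Marveld2 8.14 ± 1.17 TPM and 8.17 ± 1.22 TPM (-0.28 to 0.27). The classes overlapped for every gene. The intervals of Cldn11, Ocln, Tjp1, F11r, Marveld2, Gja1 and Cdh2 thus leave room for differences of at most 0.42 on the log2 scale in either direction, and those of Cldn3 and Cldn5 for more.

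With the litter as a fixed factor, 0 of the 9 genes passed at any age. Heterozygotes set against +/+ animals with age as a factor gave 0 of 18668 rows (0%) and 0 of the 9 genes by limma. An unadjusted p under 0.05 was reached by 1972 of these rows and 0 of the 9 genes. The log2 differences of the 9 genes lay between -0.091 for Ocln and 0.069 for Tjp1.

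Lists of other junction genes, drawn up with earlier results of these data known, are read against the 20.3% of all rows that were lower and the 26.8% that were higher from 8 to 16 dpp in mutants, and the 24.4% and 26.9% in non-mutants. Of 16 other tight junction genes, 14 were tested, and 7 fell and 4 rose in mutants while 8 fell and 2 rose in non-mutants. In non-mutants Cxadr, an adhesion receptor related to the junctional adhesion molecules (-1.79, SE 0.18, adjusted p = 1.75e-09 by limma), Cgnl1, paracingulin (-1.41, SE 0.15, adjusted p = 6.91e-09), Marveld1 (-0.89) and Cldn12 (-0.73) fell, with mutant values of -1.79, -1.26, -0.59 and -0.82. Of 18 other genes of adherens junctions and ectoplasmic specializations, all tested, 10 fell and 2 rose in mutants, and 13 fell and 3 rose in non-mutants. Among them were the integrin chains Itga6 (-1.02 in mutants and -1.18 in non-mutants) and Itgb1 (-0.53 and -0.68), the adhesion molecule Nectin1 (-1.76 and -1.76) and beta-catenin, Ctnnb1 (-0.53 and -0.59), which binds the tail of N-cadherin.

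Of 12 other gap junction and desmosome genes, 10 were tested, and 5 fell and 2 rose in mutants while 5 fell and 1 rose in non-mutants. The desmosomal genes Dsp (-2.60 in mutants and -2.51 in non-mutants), Dsc2 (-2.33 and -2.38) and Dsg2 (-1.51 and -1.25) fell. Gja6, connexin 33, a testis connexin of rodent Sertoli cells, rose (4.67, SE 0.26, adjusted p = 7.2e-14 in mutants and 4.41, SE 0.26, adjusted p = 9.8e-14 in non-mutants by limma) as Gja1 fell. Of 10 polarity and scaffold genes, 3 fell and 3 rose in each class, beside the shares of all rows given above, including Pard3, a partner of F11r, which fell (-1.26 in mutants and -1.41 in non-mutants), and the apical Crb3, which rose (0.69 and 0.98). List medians from 8 to 16 dpp in mutants and non-mutants were -0.15 and -0.54 for tight junction genes, -0.53 and -0.64 for adherens genes, -0.26 and -0.37 for gap junction and desmosome genes, and -0.12 and -0.20 for polarity genes. None of the genes of these 4 lists passed between mutants and non-mutants at 16 dpp by limma.

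**Figure D5:**
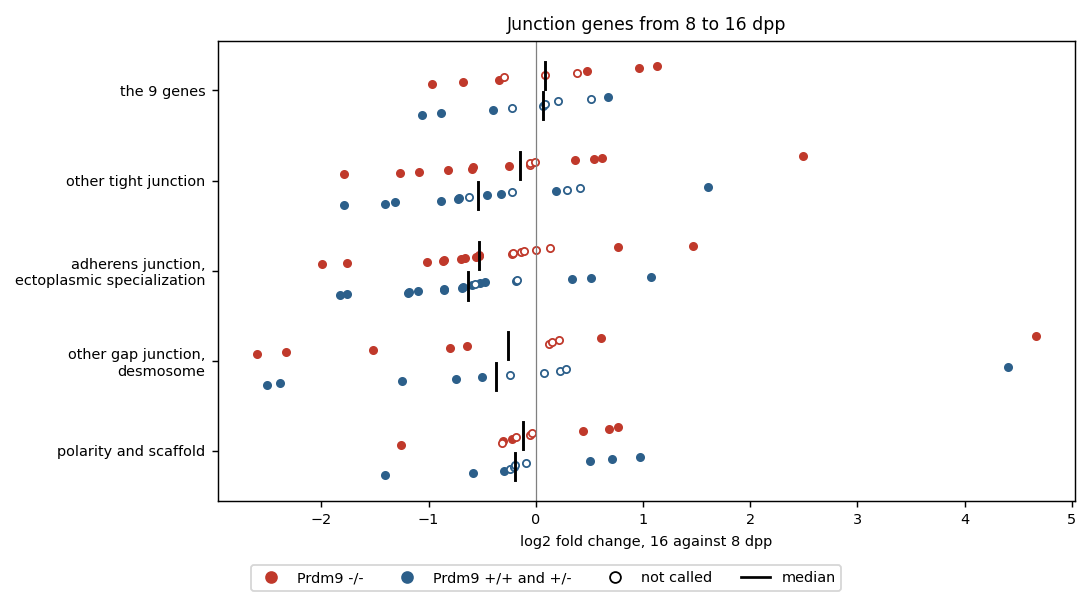
Log2 fold changes from 8 to 16 dpp (horizontal axis) of the 9 genes and of 4 lists of other junction genes, 1 point per gene tested, mutants red above non-mutants blue, filled where the limma adjusted p was under 0.05; black ticks are medians. The median of the 9 genes is 0.083 in mutants and 0.065 in non-mutants, the values of Tjp1, which did not pass. It lies near the medians of all rows, 0.055 and 0.025, and the medians of the other lists are below 0.

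By Pearson correlation of log2(TPM + 1) over the 30 libraries among 13268 tested Ensembl genes, the genes most like Cldn11 were Sept14 (r = 0.97) and Fam189a2 (0.96). Those most like Cdh2 were Pja1 (0.93) and Rhobtb1 (0.93), and Anapc1 (0.92) was the gene most like Tjp1. Those most like F11r were Wsb2 (0.96) and Wwtr1 (0.96), those most like Gja1 were Eps8 (0.95) and Tceal9 (0.95), and those most like Ocln were Ndfip1 (0.88) and Tmeff1 (0.86). Marveld2 was closest to Bnc2 (0.89) and Vwa2 (0.85), Cldn3 to Slc26a10 (0.81) and Aqp8 (0.80), and Cldn5 to Gimap6 (0.75) and Tm4sf1 (0.70).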

How the data were processed

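RNA was sequenced from 30 libraries, 1 per animal. The deposited TPM values were made by the authors with Bowtie 1.0.0 and RSEM 1.2.8 on mm10 (GRCm38), per the submitters' processing notes, whether strand was used in counting is not given in the sources used here, and rows absent from the table hold 3.23 to 3.95% of the TPM total. Read depth cannot be recovered from TPM, and counting intervals are therefore not given. Liberase digestion of the testes was followed by washing away interstitial cells, per the labels' protocols.

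TPM was transformed to log2(TPM + 1), and rows over 1 TPM in at least 5 libraries were fitted with limma 3.58.1 (R 4.3.3) with a mean-variance trend over 6 groups of 5 libraries (genotype class by age). Every p-value below is from limma, Benjamini-Hochberg adjusted over all 20021 rows unless called unadjusted, with calls at 0.05. Heterozygotes against +/+ used 18668 rows. The members and all gene lists were chosen with earlier results of these data known. Genes named beside the 9 are, for each list, taken from up to 4 with the smallest adjusted p among those called in non-mutants from 8 to 16 dpp and up to 2 at 16 dpp by genotype, and for each of the 9 the 2 most alike, of which 1 is not reported here.

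Litter mates, paired by litter and by neighbouring library numbers in the labels, were checked for pairing. Their deviations from group means correlated at 0.073 to 0.39 in 15 pairs, 13 of them over 0.1. The median was 0.24, against -0.084 for other litters of the same age. Litter and library order cannot be told apart in these pairs. Replicate numbers did not pair samples. Alternatives were another pseudocount, filters, scalings, each library left out, the 12 dpp litter in which Prdm9 went against the labels left out, the litter or replicate number as a block, single genotypes, and Sertoli covariates. On simulated data for the non-mutant step from 8 to 16 dpp, 52 of 100 genes given a log2 change of 0.5 were called. Of 100 given a change of 1, 96 were called, and 4 of the 152 calls were false. Only these genes were changed among 20021 rows, with independent noise and no litter effect, while 51.3% of rows passed in the real step. The simulated shares therefore do not describe that step. Motif windows came from RefSeq GRCm38.p6.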

Additional observations from a re-analysis of the deposited data

Results flagged for a closer look

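Each of the 9 genes was examined for a library far from the rest of its group, in 63 groups of 4 or 5 libraries, and 6 stood out where chance would give about 3.15 (5% of groups). In mutants of 8 dpp, replicate 1 was the lowest library for Ocln at 47.47 TPM, with the next at 62.82 TPM, and for Gja1 at 175.89 TPM, with the next at 339.22 TPM. In mutants of 12 dpp, replicate 2 was the highest for Tjp1 at 97.89 TPM (next 89.23 TPM) and replicate 4 the highest for F11r at 262.25 TPM (next 223.25 TPM). In heterozygotes of 12 dpp, replicate 4 was the highest for Marveld2 at 13.29 TPM, with the next at 9.14 TPM. In non-mutants of 16 dpp, +/+ replicate 2 was the lowest for Cdh2 at 51.57 TPM, with the next at 60.84 TPM. The reasons were not tested.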

How the results depend on the processing

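Of 4122 alternative values for 99 gene results, 3842 kept direction and side of the threshold, 76 lost a call, 24 gained one and 3 reversed, while 177 that passed in neither setting changed sign. The reversals came with the Sertoli covariate without Tsx: Ocln from 8 to 16 dpp was 0.033 in mutants and 0.14 in non-mutants, and Gja1 from 12 to 16 dpp in non-mutants was 0.12. The covariate shares its age trend with these genes, and the cause was not tested.

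The count of genes that passed from 12 to 16 dpp in non-mutants was 2. It was 1 without a filter, with median-ratio scaling, with quantile normalization, with either Sertoli covariate, with +/- libraries alone, and with a replicate block by replicate number or by litter as a random effect, and 0 with +/+ libraries alone. Samples of the same age and replicate number deviated together little (median r 0.067 over 15 pairs, 5 over 0.1), so the numbers do not pair them. The litter as a block changed no call of the 9 genes other than those of Tjp1 from 8 to 12 dpp and of Gja1 from 12 to 16 dpp given in the text. The count from 8 to 12 dpp in non-mutants was 5, against 3 with median-ratio scaling or the Sertoli covariate without Tsx, 2 with +/- and 0 with +/+ libraries alone. The count from 12 to 16 dpp in mutants was 3, against 1 with that covariate. Leaving out 1 library at a time gave 1 to 3, 3 to 5 and 2 to 4 for these counts, 3 to 4 and 6 to 8 for mutants from 8 to 12 and from 8 to 16 dpp, 4 to 5 for non-mutants from 8 to 16 dpp, and 0 throughout for genotype. Without mutant replicates 1 and 4 of 8 dpp together, chosen after seeing the data, 7 genes passed in mutants from 8 to 16 dpp, Cldn5 among them (0.56, adjusted p = 0.0209).

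Over all rows, 653 passed by genotype at 16 dpp, against 1181 without a filter, 1103 with the litter as a random effect, 405 with that age alone and 194 against +/+ libraries alone. For the difference of the age step between classes 295 passed, against 444 without a filter and 520 with a random effect of litter. Leaving out 1 library gave 366 to 781 and 149 to 398 for these. With +/+ libraries alone, 1405, 262 and 6774 rows passed in non-mutants from 8 to 12, 12 to 16 and 8 to 16 dpp, against 6497, 4372 and 10265; with +/- alone the first steps gave 3501 and 2815, and the Sertoli covariate without Tsx gave 5910 for the whole span. Depth is unknown, so the precision of low transcripts such as Cldn3 cannot be stated from counts.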
